A study of Mus musculus with 4 samples.

Results

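The genes of the mitochondrial ribosomal proteins were examined in resting CD4 T cells of the mouse spleen. A gene was included when a probe set of the array was annotated with its symbol alone and the symbol began with Mrpl (large subunit) or Mrps (small subunit) followed by a number. This gave 77 genes, 48 of the large and 29 of the small subunit, out of 19937 genes with such a probe set. The 77 genes were covered by 85 of the 34760 probe sets, and each gene was represented by its probe set of highest mean. RNA was hybridised to 4 arrays, of which 2 carried RNA from wild-type (WT) mice and 2 from mice in which the whole Ifitm gene family is deleted (IfitmF-/-). All mice were 6 to 8 weeks old and, per the study, of C57BL/6 background. CD4 T cells were enriched from the spleen by removing other cells with antibodies, without activation in culture, and per the study each array held cells pooled from a pair of mice, with a separate purification for each replicate. Levels are log2 values of normalised intensity, and a change is the IfitmF-/- mean minus the WT mean in log2 units. Genes were called when limma's p, adjusted by Benjamini-Hochberg over all probe sets, was under 0.05.

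The mitochondrial ribosome translates the few messenger RNAs of mitochondrial DNA, which encode membrane subunits of the respiratory chain and of ATP synthase. Its proteins are all encoded in the nucleus, made in the cytosol and imported, whereas its ribosomal RNAs are transcribed inside the organelle. Some of its proteins have a counterpart in bacterial ribosomes, and the others were added during the evolution of mitochondria. The small subunit decodes the messenger and the large subunit forms the peptide bond. T cells enlarge their mitochondrial translation when they leave the resting state.

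Replicate arrays correlated at 0.993 (WT) and 0.991 (IfitmF-/-), beside 0.976 to 0.979 across genotypes. The deleted genes were low in IfitmF-/- cells, with changes of -1.72 for Ifitm1, -3.26 for Ifitm2 and -4.60 for Ifitm3. Xist, the RNA of the silenced X chromosome, was at 11.32 and 11.25 in WT and at 4.86 and 4.43 in IfitmF-/- cells. The Y-linked genes Eif2s3y, Kdm5d and Uty showed the opposite pattern, so that sex and genotype cannot be told apart in any comparison given here. The labelled cell type was checked by its markers. The 6 measured T cell markers (Cd3e, Cd3d, Cd3g, Cd4, Thy1 and Cd5) had a mean level of 11.22 and 11.26 in WT and of 11.59 and 11.58 in IfitmF-/- cells, and 2 of them, Cd3d and Cd3g, were called higher. The 5 measured B cell markers were present at a mean level of 10.26 and 8.65 in WT and 8.55 and 9.24 in IfitmF-/- cells, overlapping between genotypes, and none was called. The part of the T cell markers, or of any other cell type, in the results below was not tested, and in bulk samples fewer cells of a type and less RNA per cell cannot be told apart.

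Few of the mitochondrial ribosomal protein genes passed the test, and most changes were small. In the large subunit Mrpl24, Mrpl49 and Mrpl50 rose and Mrpl46 fell, which is 3 higher and 1 lower of 48. In the small subunit Mrps33 rose, 1 of 29, and none fell. Over both subunits 4 of 77 genes (5.19%) were called higher and 1 (1.30%) lower, beside 4.96% higher and 3.61% lower of all 19937 genes, or 8.57% in either direction, which compares with 5 of the 77 (6.49%). The share called was therefore near the background, or below it when set beside the genes at or above the median level of 6.26, of which 8.72% were called higher and 6.52% lower (15.2% in all). Of the 77 genes, 3 lay below that level. The changes spanned -0.47 (Mrpl46) to 0.89 (Mrpl42), and 5 genes differed by more than 1.5-fold. The study's methods further asked for a fold over 2 and for 250 linear units or more between the lowest and highest array, which 1.28% of all genes met and none of the 77. Without any 1 of the 4 arrays, 0 of the 19937 genes were called by limma (3244 to 4828 at an unadjusted p under 0.05), with the lone remaining array of a genotype assumed to vary like the other genotype, and the 5 genes then had adjusted p values of 0.0740 to 0.215 with the same direction each time.

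**Figure D1:**
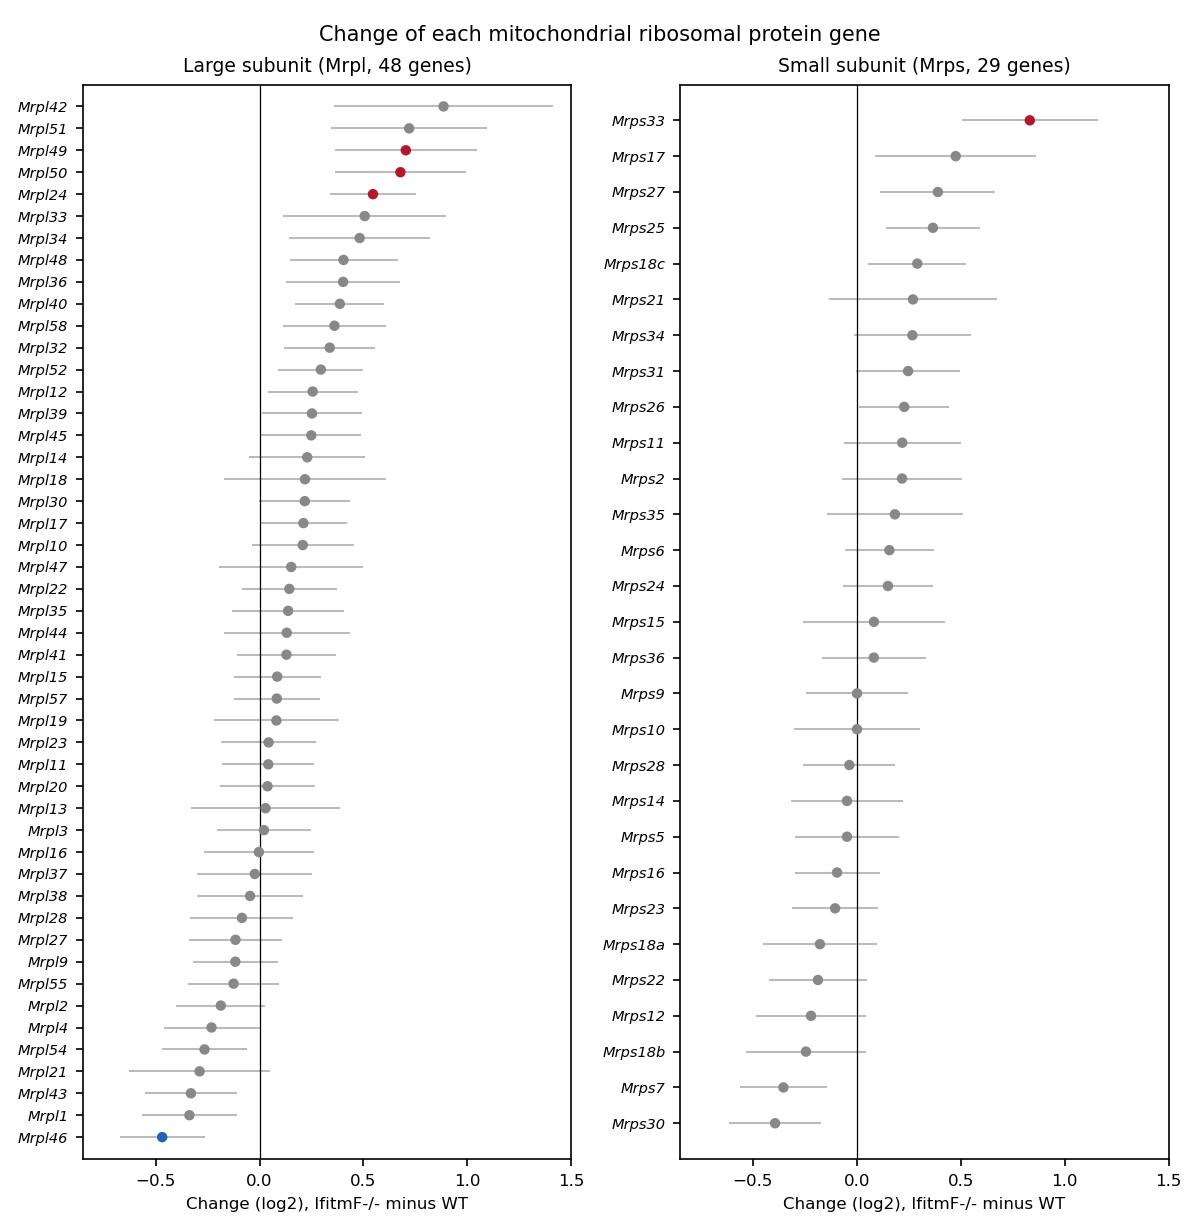
Change of each of the 48 large subunit genes (left) and 29 small subunit genes (right) on the x axis, as IfitmF-/- minus WT in log2 units, ordered by size. Points are differences of group means of 2 arrays each, lines are unadjusted 95% intervals from limma, red points were called higher (Mrpl24, Mrpl49, Mrpl50, Mrps33), the blue point lower (Mrpl46), and grey points did not pass; most points lie within 0.5 of 0.

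The called genes are given on each array. Mrpl24, the counterpart of a bacterial protein that starts the folding of the large ribosomal RNA, was at 8.60 and 8.65 in WT and at 9.17 and 9.17 in IfitmF-/- cells. The change was 0.55 (95% interval 0.34 to 0.75), or 1.46-fold (adjusted p = 0.0323), and the genotypes did not overlap. Mrpl49 and Mrpl50 encode large subunit proteins without a bacterial counterpart. Mrpl49 was at 7.74 and 8.02 in WT and at 8.64 and 8.53 in IfitmF-/- cells. It rose by 0.70 (95% interval 0.36 to 1.05), 1.63-fold, with the adjusted p closest to the threshold among the 5 called genes (adjusted p = 0.0486). Mrpl50 was at 7.04 and 6.98 in WT and 7.56 and 7.81 in IfitmF-/- cells, so both IfitmF-/- arrays were again the higher ones. Its change was 0.68 (95% interval 0.36 to 0.99), 1.60-fold (adjusted p = 0.0445).

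Mrpl46, another large subunit protein particular to mitochondria, was the single member called lower. Its level was 7.84 on each WT array and 7.37 on each IfitmF-/- array, so that replicates differed far less than genotypes. The change was -0.47 (95% interval -0.67 to -0.26), a level 1.38-fold lower in IfitmF-/- cells (adjusted p = 0.0401). Mrps33, a small protein of the small subunit without a bacterial counterpart, was at 7.91 and 7.68 in WT and at 8.54 and 8.72 in IfitmF-/- cells. It rose by 0.83 (95% interval 0.50 to 1.16), 1.78-fold (adjusted p = 0.0342), the largest change among the called members.

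**Figure D2:**
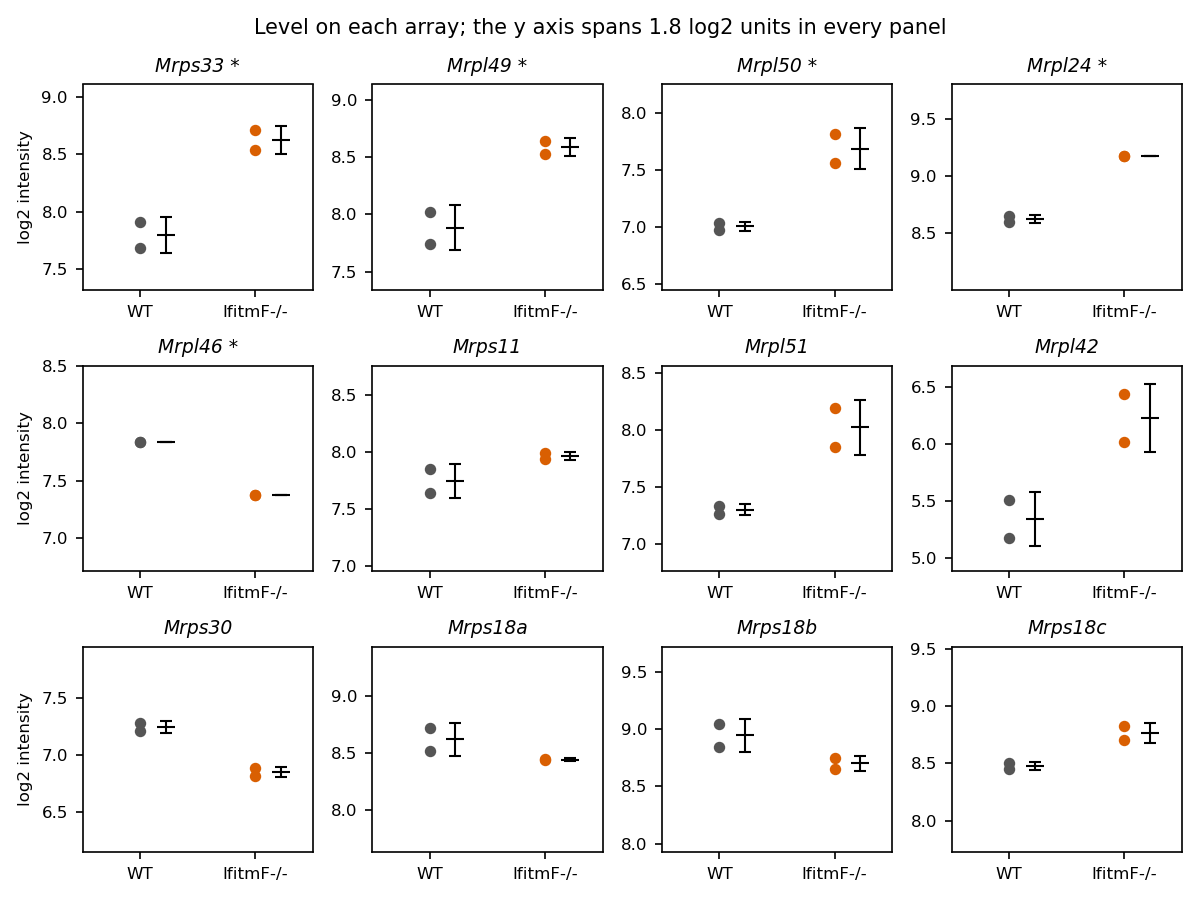
Level of 12 members on each array (y axis, log2 intensity, spanning 1.8 log2 units in every panel), with WT in grey and IfitmF-/- in orange. Horizontal bars are means of 2 arrays, whiskers are 1 SD, and an asterisk marks the 5 called genes; Mrpl24 and Mrpl46 show replicate points that nearly coincide, while the replicates of Mrpl42 lie 0.33 and 0.42 apart.

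The promoters of 3 called genes are shown because each carries a feature taken up below, namely letters of an ETS motif in Mrps33, letters of a YY1 motif in Mrpl49, and the start of a neighbouring member in Mrpl46. They are RefSeq sequences of GRCm38.p6, 300 bases each, from 250 before to 50 after the annotated start, printed 5′ to 3′ on the strand of the gene. All 3 genes lie on the minus strand, Mrps33 at chr6:39810887-39811186, Mrpl49 at chr19:6057706-6058005 and Mrpl46 at chr7:78783040-78783339. Capitals mark the ETS letters in Mrps33 (found on the opposite strand), the YY1 letters in Mrpl49, and in Mrpl46 the bases between its own start and that of Mrps11, which is transcribed the other way.
Mrps33: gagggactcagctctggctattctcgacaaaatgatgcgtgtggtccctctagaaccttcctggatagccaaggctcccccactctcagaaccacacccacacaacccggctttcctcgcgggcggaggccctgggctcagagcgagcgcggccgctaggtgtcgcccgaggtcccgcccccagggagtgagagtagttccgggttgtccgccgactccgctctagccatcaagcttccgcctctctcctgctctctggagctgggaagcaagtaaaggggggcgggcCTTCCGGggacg
Mrpl49: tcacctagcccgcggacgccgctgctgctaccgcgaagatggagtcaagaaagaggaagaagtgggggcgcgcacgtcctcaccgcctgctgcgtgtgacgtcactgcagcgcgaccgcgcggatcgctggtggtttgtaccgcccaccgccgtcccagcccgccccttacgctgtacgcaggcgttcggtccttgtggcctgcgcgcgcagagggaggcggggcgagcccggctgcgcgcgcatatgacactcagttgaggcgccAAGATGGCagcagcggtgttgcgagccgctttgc
Mrpl46: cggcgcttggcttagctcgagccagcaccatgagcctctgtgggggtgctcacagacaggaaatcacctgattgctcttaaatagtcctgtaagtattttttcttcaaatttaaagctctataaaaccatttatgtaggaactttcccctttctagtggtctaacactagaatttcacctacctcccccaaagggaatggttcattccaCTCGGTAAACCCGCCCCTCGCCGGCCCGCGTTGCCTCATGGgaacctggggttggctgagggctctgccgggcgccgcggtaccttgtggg

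The start of Mrps11, a small subunit gene with a bacterial counterpart, lies 42 bases from that of Mrpl46 on the other strand. Mrps11 was at 7.64 and 7.85 in WT and 7.94 and 7.99 in IfitmF-/- cells, a change of 0.22 (95% interval -0.06 to 0.50) that did not pass (adjusted p = 0.281). The gene called lower and its neighbour across the shared promoter thus had changes of opposite sign, and the difference between their changes was not tested.

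Genes just outside the threshold were described in the same way. Mrpl51, a mitochondria-specific large subunit gene, was at 7.34 and 7.27 in WT and at 7.85 and 8.19 in IfitmF-/- cells, a difference of 0.72 (adjusted p = 0.0559). Mrpl42 had the largest difference of all members, 0.89, with 5.51 and 5.18 in WT and 6.02 and 6.44 in IfitmF-/- cells, and was not called (adjusted p = 0.0730). Its replicates were spread more widely than those of any called gene, and its mean level was below the median of all probe sets, as were those of Mrpl22 and Mrpl47. Mrpl40 was at 9.15 and 9.22 in WT and 9.58 and 9.57 in IfitmF-/- cells (change 0.39, adjusted p = 0.0625). Both IfitmF-/- arrays lay above both WT arrays for Mrpl51, Mrpl42 and Mrpl40. The same held for 27.9% of all genes and 39.3% of genes at or above the median level. On the other side of 0, Mrpl1, whose bacterial counterpart forms the mobile stalk at the exit site of transfer RNA, had a change of -0.34 (8.26 and 8.37 against 7.96 and 7.99, adjusted p = 0.0938). Mrpl43 had a change of -0.33 (7.94 and 8.04 against 7.66 and 7.67, adjusted p = 0.0925).

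Members that work at known sites of the large subunit were then viewed together, a grouping chosen after their values were seen. Mrpl12 forms the stalk that recruits translation factors and is also known to bind the mitochondrial RNA polymerase. It was at 8.28 and 8.21 in WT and 8.52 and 8.48 in IfitmF-/- cells, a change of 0.26 (95% interval 0.04 to 0.47) that did not pass (adjusted p = 0.141). Mrpl10, which anchors that stalk, had a change of 0.21 (adjusted p = 0.247), and Mrpl11, at its base, of 0.04 (adjusted p = 0.792). At the tunnel through which the new chain leaves, Mrpl22 and Mrpl23 had changes of 0.14 and 0.04, and Mrpl45, which holds the ribosome to the inner membrane, of 0.25 (adjusted p = 0.178). Mrpl2, Mrpl3 and Mrpl4, whose counterparts belong to the core of every ribosome, had changes of -0.19, 0.02 and -0.23. Mrpl58, which frees chains from stalled ribosomes, was at 8.04 and 8.16 in WT and 8.41 and 8.51 in IfitmF-/- cells (change 0.36, adjusted p = 0.0951). None of the genes in this grouping was called, while Mrpl24, described above, also lies at the rim of the tunnel and was called higher.

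In the small subunit, the members next to Mrps33 by size of change were Mrps17, Mrps27 and Mrps25 on the higher side. Mrps17, the counterpart of a bacterial protein that binds the small ribosomal RNA early in assembly, was at 6.18 and 6.17 in WT and at 6.46 and 6.83 in IfitmF-/- cells. This difference of 0.48 did not pass (adjusted p = 0.132). Mrps27, which carries pentatricopeptide repeats, an RNA-binding fold, had a change of 0.39 (6.22 and 6.33 against 6.58 and 6.75, adjusted p = 0.103). Mrps25 had a change of 0.37 (6.71 and 6.81 against 7.15 and 7.10, adjusted p = 0.0783). For these 3 genes both IfitmF-/- arrays lay above both WT arrays. The same held for 27.9% of all genes and 39.3% of genes at or above the median level. On the lower side, Mrps7, whose counterpart organises the head of the small subunit, was at 8.13 and 8.16 in WT and 7.82 and 7.77 in IfitmF-/- cells, a change of -0.35 (adjusted p = 0.0727). Mrps12, whose counterpart sets the accuracy of decoding, had a change of -0.22 (6.60 and 6.69 against 6.50 and 6.35, adjusted p = 0.249). Mrps21 and Mrps15 had changes of 0.27 (adjusted p = 0.340) and 0.08 (adjusted p = 0.731).

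The symbols do not always give the place of the protein. Mrps30 and Mrps18a are named for the small subunit, but their proteins are known to sit in the large one. Mrps30 was at 7.21 and 7.28 in WT and 6.88 and 6.82 in IfitmF-/- cells, a change of -0.39 (95% interval -0.62 to -0.17), which was the lowest of the 29 genes and did not pass (adjusted p = 0.0657). The 3 homologues of bacterial S18 differed in sign. Mrps18a and Mrps18b had changes of -0.18 (adjusted p = 0.352) and -0.25 (adjusted p = 0.247), with the IfitmF-/- arrays below both WT arrays. Mrps18c had a change of 0.29 (8.45 and 8.50 against 8.83 and 8.71, adjusted p = 0.132), with the IfitmF-/- arrays above. No S18 homologue was called, and the differences among the 3 were not tested. Mrps36, now known as a component of the 2-oxoglutarate dehydrogenase complex, had a change of 0.08 (adjusted p = 0.636).

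Although few members were called, more lay above 0 than below. The median change was 0.13 in the large and 0.08 in the small subunit, beside -0.02 over all genes and 0.03 over the genes at or above the median level. Across the 4 ways to set 1 IfitmF-/- array against 1 WT array, which share arrays, the median was 0.10 to 0.19 for the large and 0.03 to 0.13 for the small subunit. Without IfitmF-/- replicate 2 the median of the small subunit was 0.022, and without IfitmF-/- replicate 1 it was 0.134. The mean level of the large subunit genes was 7.95 and 7.98 in WT and 8.07 and 8.15 in IfitmF-/- cells. That of the small subunit genes was 7.84 and 7.86 in WT and 7.92 and 7.95 in IfitmF-/- cells. Both means were thus a little higher on both IfitmF-/- arrays, by 0.15 and 0.09 between genotypes. The T cell markers were also higher there, with a median change of 0.32, and their part in this shift was not tested.

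Of the members, 34 of 48 and 18 of 29 had a change above 0, together 67.5%, beside 46.3% of all genes and 53.6% of the genes at or above the median level. Both IfitmF-/- arrays lay above both WT arrays for 25 large and 14 small subunit genes, 50.6% of the members, beside 27.9% of all genes and 39.3% of the brighter genes. Both lay below for 10 large and 8 small subunit genes, 23.4%, beside 30.8% and 32.0%. At an unadjusted p under 0.05, 17 large and 6 small subunit genes were higher, 29.9% of the members, beside 14.3% of all genes and 24.1% of the brighter genes. At the same unadjusted p, 4 large and 2 small subunit genes were lower, 7.79%, beside 11.5% and 16.6%. These shares describe 77 genes measured on the same 4 arrays, and genes on an array are not independent of each other.

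**Figure D3:**
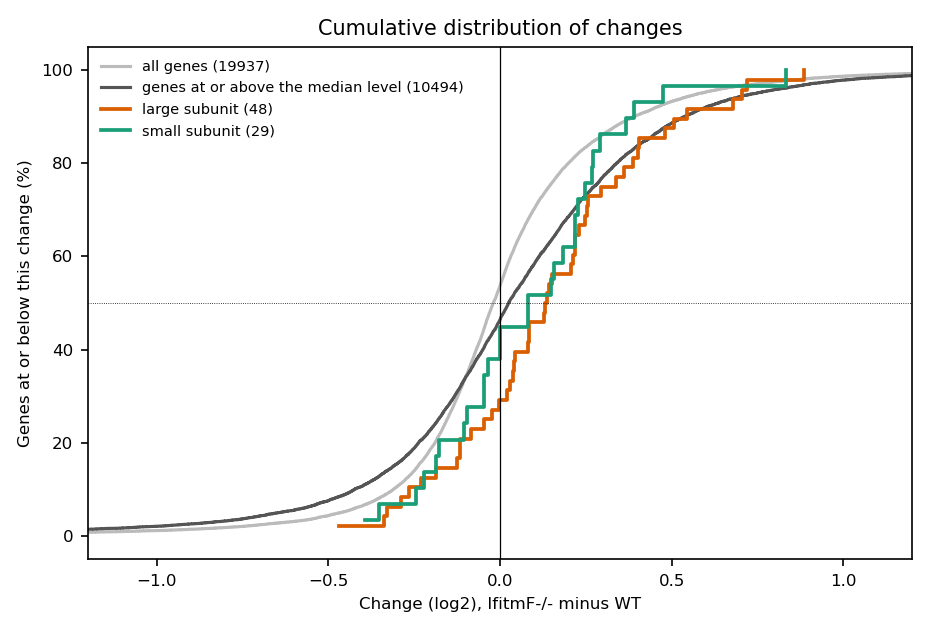
Cumulative distribution of the change (x axis, log2, IfitmF-/- minus WT), with the y axis giving the percentage of genes at or below that change for all 19937 genes (light grey), the 10494 genes at or above the median level (dark grey), the 48 large subunit genes (orange) and the 29 small subunit genes (green). The x axis is limited to changes between -1.2 and 1.2; the curves of both subunits cross the dotted line at 50% to the right of 0, at medians of 0.13 and 0.08.

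The members with and without a bacterial counterpart were set side by side within each subunit. In the large subunit the 30 genes with a counterpart had a median change of 0.08, and 13 of them (43.3%) were higher on both IfitmF-/- arrays than on both WT arrays, near the 39.3% of the brighter genes (27.9% of all genes). Only Mrpl24 was called among them (3.33%, beside 4.96% of all genes called higher). The 18 mitochondria-specific genes had a median change of 0.25, and 12 of them (66.7%) were higher on both IfitmF-/- arrays. In this group Mrpl49 and Mrpl50 were called higher (11.1%) and Mrpl46 lower (5.56%). Of all genes 4.96% were called higher and 3.61% lower, and of the brighter genes 8.72% and 6.52%. In the small subunit the 18 genes with a counterpart had a median change of 0.00 with none called. The 11 mitochondria-specific genes there had a median change of 0.23, with Mrps33 called (9.09%). In these 2 small subunit groups 38.9% and 63.6% of genes were higher on both IfitmF-/- arrays than on both WT arrays. Without any 1 array, the medians were 0.059 to 0.107 and 0.221 to 0.300 in the large subunit, for genes with and without a counterpart. In the small subunit they were -0.067 (without IfitmF-/- replicate 2) to 0.096 (without IfitmF-/- replicate 1) and 0.172 to 0.303, so that the first had no stable sign. The groups follow the symbols, so the 11 small subunit genes include Mrps30 and Mrps36, and the small subunit genes with a counterpart include Mrps18a. The difference between members of the 2 origins was not tested.

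Some genes had more than a single probe set, and of all probe sets of the array 8.43% were called. The 8 such members were Mrpl23, Mrpl27, Mrpl41, Mrpl47, Mrpl51, Mrps5, Mrps33 and Mrps36. For Mrps33 the second probe set was at 5.30 and 5.40 in WT and 5.76 and 5.46 in IfitmF-/- cells, and was not called (change 0.26, adjusted p = 0.291). For Mrpl51 the second probe set was called, with 6.44 and 6.62 in WT and 7.08 and 7.21 in IfitmF-/- cells (change 0.62, adjusted p = 0.0442). For Mrpl47 the probe set of highest mean had a change of 0.15 (adjusted p = 0.519) and the other rose by 0.66 (adjusted p = 0.0286), from 5.61 and 5.56 to 6.19 and 6.30. Probe sets of Mrpl23 (0.04 and -0.02) and Mrps5 (-0.05 and 0.08) differed in sign, all with changes within 0.1 of 0. Those of Mrpl27 also differed in sign (-0.12 and 0.0008), and neither was called. A further gene, Mrpl53, shares its probe set with Ccdc142 and was left out by the naming rule. That probe set rose by 0.51, from 6.70 and 6.73 to 7.29 and 7.17 (adjusted p = 0.0437), and the transcripts of the 2 genes cannot be told apart in it. RefSeq lists pseudogenes named after Mrpl23, Mrpl27, Mrpl48 and Mrps36, whose transcripts a probe set may also bind, and no called gene is among these 4. Pseudogenes with other kinds of symbol were not searched for, so the called genes may have some.

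The promoters were searched for the letters of transcription factor motifs known from mitochondrial genes, on both strands. RefSeq promoters were found for 68 of the 77 genes, 74 promoters in all, and were compared with all 32851 promoters of the same length. The NRF1 letters (GCGCA, any base, then GCGC) were found in 17.6% of the members' promoters and in 4.60% of all promoters. The ETS letters CCGGAAG, which GABP recognises, were found in 33.8% and 8.86%, and the YY1 letters AAGATGGC in 16.2% and 2.75%. The other motifs had closer shares, namely 9.46% and 7.15% for the E-box CACGTG to which MYC binds, 2.70% and 1.79% for TGACGTCA, which CREB binds, and 39.2% and 37.4% for CCAAT. For the core of the interferon-stimulated response element (GAAA, any 2 bases, then GAAA) they were 4.05% and 3.44%. These motifs share few letters, and a match in a promoter is a description of its letters only.

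Among the called genes, the promoter of Mrps33 held the ETS letters and that of Mrpl49 the YY1 and the CREB letters, while those of Mrpl24 and Mrpl46 held none of the 7 motifs and that of Mrpl50 only CCAAT. The median change was 0.23 for the 13 members with the NRF1 letters and 0.13 for the 55 without. For the ETS letters it was 0.21 for 25 members with and 0.14 for 43 without them, and for the YY1 letters 0.18 for 12 and 0.14 for 56. The order was the reverse for the E-box (0.04 for 5 with, 0.15 for 63 without) and for CCAAT (0.08 for 26, 0.15 for 42). With few members, it was 0.27 for 3 and 0.14 for 65 for the interferon element, and 0.35 for 2 and 0.15 for 66 for the CREB letters. The differences for the NRF1, ETS and YY1 letters were small beside the range of changes within each set. None of the differences for the 7 motifs was tested.

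Many members start close to a gene on the opposite strand. The promoter window overlapped that of such a gene for 24 of the 68 members (35.3%), compared with 3212 of 27025 genes of the promoter table (11.9%). Both genes were measured in 21 pairs, and their changes had the same sign in 12 and opposite signs in 9. Outside the members a single partner was called, Mitd1, which shares its promoter region with Mrpl30 and was at 7.22 and 7.01 in WT and 8.55 and 8.50 in IfitmF-/- cells (change 1.41, adjusted p = 0.0141). Mrpl30 itself had a change of 0.22 (adjusted p = 0.191). Fau, which encodes a cytosolic ribosomal protein and starts 192 bases from Mrpl49, had a change of 0.01 (adjusted p = 0.964) beside the 0.70 of Mrpl49. Zfp189, next to Mrpl50, had a change of 0.38 (adjusted p = 0.116) beside 0.68. Mrpl43 and Twnk, the gene of the mitochondrial DNA helicase, had changes of -0.33 and 0.14, and Mrps12 and Sars2, the mitochondrial seryl-tRNA synthetase gene, of -0.22 and -0.16. These neighbours were named after their values were seen.

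The factors that read these motifs and other genes of mitochondrial gene expression were examined from fixed lists. Among 11 transcription factors of mitochondrial genes, none was called higher and Gabpb1 was called lower (9.09%, beside 3.61% of all genes and 6.52% of the brighter genes). The median change of the 11 was 0.14, with 9 above 0. Both IfitmF-/- arrays lay above both WT arrays for 8 (72.7%), beside 27.9% of all genes and 39.3% of the brighter genes. Gabpb1, the subunit of the ETS factor GABP that carries its activating domain, was at 9.90 and 10.07 in WT and 8.64 and 8.66 in IfitmF-/- cells, a change of -1.33 (adjusted p = 0.0141). Gabpa, the subunit that binds DNA, had a change of 0.07 (adjusted p = 0.637). Nrf1 and Yy1 had changes of 0.22 (adjusted p = 0.274) and 0.14 (adjusted p = 0.440). Myc had a change of 0.62 (9.56 and 9.09 against 9.80 and 10.11, adjusted p = 0.151), with its WT replicates 0.47 apart.

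Ribosomal proteins of other symbols and the proteins that build the ribosome had few called genes as well. Of 4 measured mitochondrial ribosomal proteins with another kind of symbol, Chchd1, of the small subunit, rose from 7.64 and 7.58 to 8.32 and 8.34 (change 0.72, adjusted p = 0.0213). Gadd45gip1, of the large subunit, had a change of -0.47 (adjusted p = 0.0518), and Dap3 and Ptcd3 changes of 0.15 and -0.01. Of 26 assembly factors, 2 (7.69%) rose and none fell, with a median change of 0.08. Of all genes 4.96% were called higher, and of the brighter genes 8.72%. Tfb1m, the methyltransferase that modifies the small ribosomal RNA, rose by 1.08, from 7.14 and 7.21 to 8.22 and 8.28 (adjusted p = 0.0141). Mtg1, a GTPase of large subunit assembly, rose by 0.47 (adjusted p = 0.0440).

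Of 13 measured mitochondrial translation factors, 3 rose and none fell, with a median change of 0.26. The initiation factor genes Mtif3 and Mtif2 rose by 0.79, from 7.22 and 7.20 to 8.00 and 8.00 (adjusted p = 0.0180), and by 0.63, from 7.24 and 7.18 to 7.82 and 7.87 (adjusted p = 0.0271). Gfm2, which recycles ribosomes, rose by 0.62, from 7.19 and 7.10 to 7.75 and 7.77 (adjusted p = 0.0292). The 3 called (23.1%) stand beside 4.96% of all genes and 8.72% of the brighter genes called higher. For 11 of the 13 genes both IfitmF-/- arrays lay above both WT arrays, and for none below, beside 27.9% and 30.8% of all genes and 39.3% and 32.0% of those at or above the median level. Of 19 genes that charge mitochondrial transfer RNA, 3 (15.8%) rose and none fell, with a median of 0.10. The 3 were Gatc (1.08, adjusted p = 0.0223), Rars2 (0.96, adjusted p = 0.0203) and Nars2 (0.53, adjusted p = 0.0352). Of 22 genes for the upkeep of mitochondrial DNA and RNA, 3 (13.6%) rose and 1 (4.55%) fell. Of all genes 4.96% and 3.61% were called higher and lower, and of the brighter genes 8.72% and 6.52%. The median of the upkeep list was 0.12 with quartiles of -0.33 and 0.46, so this list went both ways. Both IfitmF-/- arrays lay above both WT arrays for 12 of these genes (54.5%) and below for 9 (40.9%). Slirp, which stabilises mitochondrial messenger RNA, rose by 0.88 (adjusted p = 0.0374), and Polg, the catalytic subunit of the mitochondrial DNA polymerase, fell by 0.61 (adjusted p = 0.0304).

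**Figure D4:**
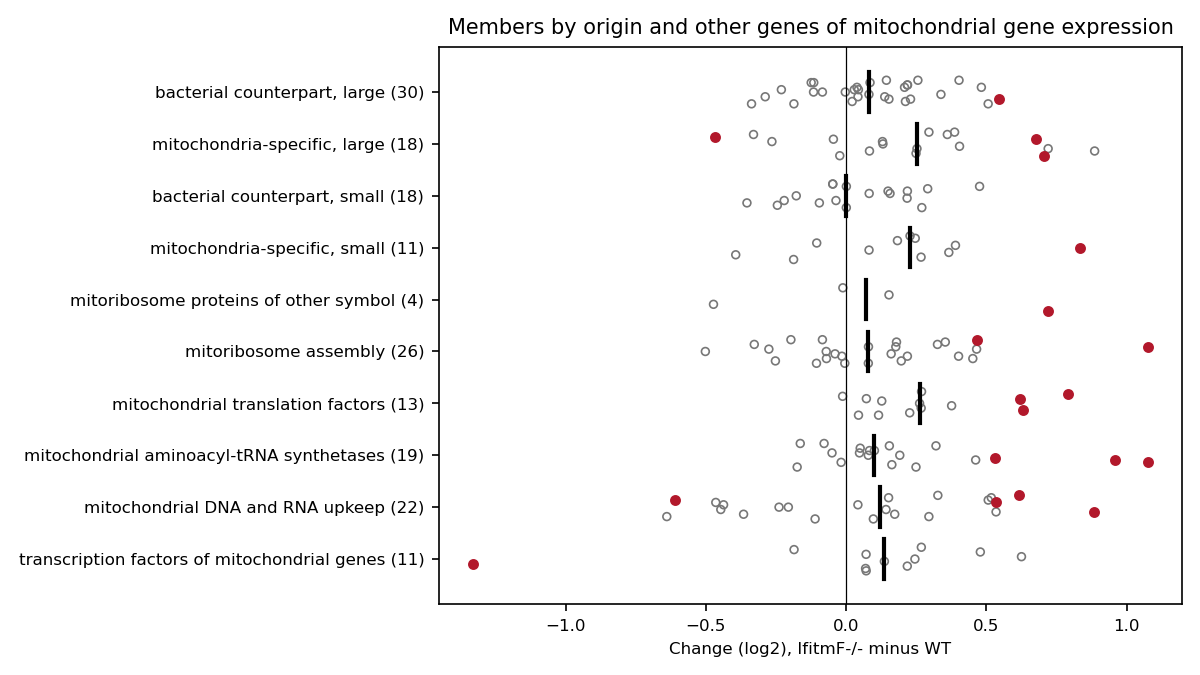
Change of each gene (x axis, log2, IfitmF-/- minus WT) in the members split by origin and in 6 further lists of mitochondrial gene expression (rows, number of measured genes in parentheses). Filled red circles were called in either direction, open circles were not, vertical bars are list medians, and the vertical scatter within a row has no meaning; the medians of the mitochondria-specific members (0.25 and 0.23) and of the translation factors (0.26) lie furthest to the right.

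Other large protein machines were described by the same measures. Of 59 cytosolic ribosomal protein genes, 2 (3.39%) were called higher and none lower, with a median change of 0.09. Of 81 genes of the respiratory chain and ATP synthase, 6 (7.41%) were called higher and none lower, with a median change of 0.20. The 3 of smallest p were the complex I genes Ndufs4 and Ndufc2 and the complex III gene Uqcrh (changes 0.72, 0.65 and 0.56). Of all genes 4.96% were called higher, and of the brighter genes 8.72%. Both IfitmF-/- arrays lay above both WT arrays for 50.8% of the cytosolic and 59.3% of the respiratory list. The same held for 50.6% of the members, 27.9% of all genes and 39.3% of the brighter genes. All 3 lists of machine parts had medians above that of all genes, and the differences among them were not tested. Markers of other cells also differed between genotypes. The 5 plasma cell markers had a mean level of 9.23 and 8.87 in WT and 8.13 and 8.17 in IfitmF-/- cells, with Xbp1 called lower. Their median change was -0.73, and both IfitmF-/- arrays lay below both WT arrays for all 5, beside 30.8% of all genes. The 4 platelet markers had a mean level of 8.99 and 8.54 in WT and 9.15 and 10.47 in IfitmF-/- cells, with none called. The 4 NK cell markers had a median change of 0.67, with Klrd1 (1.11), Ncr1 (0.75) and Klrb1c (0.58) above both WT replicates on both IfitmF-/- arrays and not called, and Nkg7 (-0.89) called lower. The 4 neutrophil markers had a median change of 0.25, with Retnlg (1.83) called higher. All 4 lay below the median level, with means of 4.85 to 6.16. Of the CD8 T cell, erythroid and myeloid markers none was called. The 2 measured erythroid markers had a mean level of 10.04 and 10.58 in WT and 11.18 and 11.12 in IfitmF-/- cells. Their changes were -0.004 and 1.68. No marker measured here was at 0 on these arrays, which give a value for every probe set, and the part of these cells in the changes of the members was not tested.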

How the data were processed

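Gene expression was measured on Affymetrix arrays, 2 of WT and 2 of IfitmF-/- CD4 T cells, with groups and replicate numbers taken from the sample titles. The authors deposited linear intensity values after RMA, which subtracts background, quantile-normalises the arrays and summarises probes, so a shift shared by all genes is removed. Per the submitters' processing notes the tools were RMA and affy. No version of either, and no definition of the probe sets, is given in the sources used here. Precision is limited by the number of arrays (2 residual and 2.39 prior degrees of freedom), and p values measure only the spread between separately purified pools.

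The log2 of each intensity was tested for all 34760 probe sets using lmFit and eBayes of limma 3.58.1 (R 4.3.3), no covariate and Benjamini-Hochberg adjustment. By the platform annotation 21640 probe sets had 1 gene, 1321 had several and 11799 had none, with symbols updated through the gene ID. Each gene took its probe set of highest mean. A level depends on the probes of a probe set, so levels rank genes only in the naming rule and in the filter at the median level. The script was tested on simulated data. The array values name no genome build, and coordinates are those of the RefSeq promoter table (GRCm38.p6).

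The genes named were every called member, the 3 of largest change each way and the 2 of highest and lowest level in each subunit, Mrpl12, Mrps12, the Mrps18 genes and Mrps30 by role, members whose probe sets differed in direction or call, up to 3 called genes of smallest p per list, and Nrf1, Gabpa, Yy1 and Myc. Any other gene was picked once its values were known. The members and lists were chosen with earlier results of these data known. The alternatives were trended and robust priors, renewed quantile normalization, centring on the median, leaving out dim probe sets, fitting only probe sets of 1 gene, the mean over probe sets, a block for replicate number, the further criteria and the t-test of the methods, Mrps30 and Mrps18a moved to the large subunit, and leaving out each array.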

Additional observations from a re-analysis of the deposited data

How the results depend on the processing

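The medians of both subunits stayed above 0 in every alternative that gives one. That of the large subunit, 0.13, was 0.109 to 0.158 without any 1 array. That of the small subunit, 0.082, was 0.022 to 0.134 without any 1 array, 0.12 with median centring, 0.15 with the mean over probe sets and 0.15 with Mrps30 and Mrps18a moved to the large subunit. The number of large subunit genes called higher, 3 as reported, was 5 with a trended prior, 7 without dim probe sets, 7 with probe sets of 1 gene only and 9 with the mean over probe sets, and 0 with the methods' t-test, the methods' further criteria and without any 1 array. The number called lower, 1 as reported, was 0 with the further criteria and without any 1 array, and stayed 1 with the t-test. For the small subunit 1 gene was called higher as reported, 2 without dim probe sets, 2 with probe sets of 1 gene and 2 with the mean over probe sets, and 0 with the t-test, the further criteria and without any 1 array, while the number called lower went from 0 to 2 without dim probe sets, with probe sets of 1 gene and with the mean over probe sets. Fewer features were then tested. All-gene calls, 989 higher and 719 lower as reported, were 1492 and 1085 without dim probe sets, 1597 and 1193 with probe sets of 1 gene, 1598 and 1192 with the mean over probe sets and 1 and 1 with the t-test. Mrpl49 missed the threshold after renewed quantile normalization (adjusted p = 0.0562), and Mrpl51 passed with a trended prior (0.0471), without dim probe sets (0.0324), with probe sets of 1 gene (0.0278) and with the mean over probe sets (0.0191). Where no construction is named, the cause was not tested.

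With the replicate number as a block, 0 members and 0 of all genes were called (4226 genes at an unadjusted p under 0.05). Same-numbered arrays did not deviate together (correlation -0.12), and the labels do not say that the numbers pair arrays. With the numbers crossed, a pairing chosen after seeing the data, 1 large and 1 small subunit gene were called higher and 0 lower, and of all genes 265 higher and 249 lower.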
